A study of Mus musculus with 4 samples.

Results

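Tppp, Tppp3, Klc3 and Dnahc11 encode proteins that build, bundle or move along microtubules, and Foxj1 encodes the transcription factor that directs the formation of motile cilia. These 5 genes, of 16755 rows in the deposited table, were taken by name and followed through bulk RNA sequencing of alveolar macrophages from mice that were wild type (WT) or lacked osteopontin (OPNKO). The first 4 were picked because their values had been seen to be higher in OPNKO, and Foxj1 was added as a marker of ciliated airway cells. The difference between genotypes that chose them is therefore described below with no test, and nothing is read from it.

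Alveolar macrophages are the resident phagocytes of the air spaces of the lung, and the labels say that they were sorted by flow cytometry. The Spp1 gene encodes osteopontin, a glycoprotein of the extracellular matrix that cells secrete. Each genotype had 2 libraries, named here WT replicate 1 and 2 and OPNKO replicate 1 and 2. The WT mice were C57BL6 and the knock-outs were Spp1-/- mice on C57BL6. All 4 samples carry a bleomycin tag, bleomycin being a drug that injures the lung, and the column headers of the table give 14 days for both groups, whereas the field on treatment says that none was given. One field speaks of single-cell RNA-seq and the titles of bulk, and the values were treated as bulk. The labels give neither the age of the mice nor the sort markers, and they do not say whether the libraries of a genotype came from separate animals, so that every p-value below measures the spread between these libraries, which may be technical. Title and genotype tag disagree for WT replicate 2 and OPNKO replicate 1, and groups follow the titles. The targeted gene went with the titles, at normalized read counts of 545719 and 606517 in WT and 4106 and 3847 in OPNKO.

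Reads assigned to genes numbered 35793800 to 44759630 per library. All 18 genes of a list of alveolar macrophage markers were present. Their summed normalized read count was 1260990 and 1252350 in WT and 956401 and 1078380 in OPNKO. Chil3 (listed as Chi3l3) among them stood at 634850 and 643790 in WT and 311109 and 411474 in OPNKO (log2 difference -0.84; limma adjusted p = 0.0528). This fall was larger than that of the sum. Over the 18 markers the median log2 difference was 0.16, and 13 had a log2 difference above 0. The surface lectin Siglecf (listed as Siglec5) lay at 6374 to 8876 and the scavenger receptor Marco at 7918 to 11671.

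Microtubules are hollow polymers of tubulin on which kinesin motors carry cargo outwards and cytoplasmic dynein carries it towards the cell centre. In motile cilia and sperm tails they form the axoneme, a fixed bundle that bends when axonemal dynein arms slide its microtubules against each other. TPPP proteins bind tubulin and bundle microtubules, kinesin light chains tie cargo to kinesin, and axonemal dynein heavy chains carry the motor domain of the arms. Airway epithelium has motile cilia, and macrophages are not known for them.

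The proximal promoters are shown because the genes that stood higher in OPNKO could share letters there, and because Foxj1 and RFX factors drive many axonemal genes through short motifs. RefSeq promoter windows on build GRCm38.p6, from 250 bases before to 50 bases after the annotated start, were matched for Tppp, Klc3 and Dnahc11 (current symbol Dnah11), which is 3 of the 5 genes. The windows were chr13:74009169-74009468 on the plus strand for Tppp, chr7:19404055-19404354 on the minus strand for Klc3 and chr12:118198994-118199293 on the minus strand for Dnahc11. Each is written 5′ to 3′ on the strand of its gene, and capitals mark the one motif that was found.
Tppp: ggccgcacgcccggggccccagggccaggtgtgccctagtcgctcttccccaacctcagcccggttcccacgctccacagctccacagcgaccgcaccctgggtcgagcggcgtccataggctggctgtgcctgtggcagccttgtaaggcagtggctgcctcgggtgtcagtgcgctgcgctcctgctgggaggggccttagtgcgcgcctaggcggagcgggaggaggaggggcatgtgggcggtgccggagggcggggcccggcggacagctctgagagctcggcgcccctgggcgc
Klc3: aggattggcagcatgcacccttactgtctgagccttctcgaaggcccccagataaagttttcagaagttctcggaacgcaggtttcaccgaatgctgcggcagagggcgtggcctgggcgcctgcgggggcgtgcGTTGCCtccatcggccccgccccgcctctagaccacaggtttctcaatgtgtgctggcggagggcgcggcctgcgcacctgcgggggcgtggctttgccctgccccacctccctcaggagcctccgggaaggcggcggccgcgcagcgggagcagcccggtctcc
Dnahc11: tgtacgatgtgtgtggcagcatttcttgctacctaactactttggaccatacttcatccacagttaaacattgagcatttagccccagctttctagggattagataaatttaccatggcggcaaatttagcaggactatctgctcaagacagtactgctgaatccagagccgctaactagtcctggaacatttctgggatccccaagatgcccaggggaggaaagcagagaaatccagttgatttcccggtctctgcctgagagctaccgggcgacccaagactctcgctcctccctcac

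The Tppp window was 73.3% G and C with 26 CpG dinucleotides, and the Klc3 window was 68% G and C, also with 26 CpG. The Dnahc11 window differed from both, at 49% G and C and 7 CpG, close to the medians of 52.7% and 7 over 32851 RefSeq windows of the same length. Both strands were searched for the RFX half-site GTTGCC, the forkhead core TGTTTAC, the PU.1 core AGGAAGT and the TATA box TATAAA. The search found GTTGCC once, in Klc3, on the strand of the gene and starting 115 bases before its start (position -115). Of all windows, 12.5% held GTTGCC, 3.65% TGTTTAC, 9.35% AGGAAGT and 13.6% TATAAA. None of these motifs was common to the 3 windows, and a motif missing from a window says only that these letters are not there.

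Tppp encodes tubulin polymerization promoting protein, which is best known from oligodendrocytes, where it bundles microtubules. Its gene (ENSMUSG00000021573) lies at chr13:74009407-74035753 on the plus strand of GRCm38 with 5102 exonic bases. Normalized read counts were 19.7 and 24.4 in the WT libraries and 285 and 236 in the OPNKO libraries, from 18, 25, 250 and 190 reads. Both OPNKO libraries stood far above both WT libraries, the lower of them 9.69 times the higher WT library. Group means were 22.1 ± 3.29 in WT and 261 ± 34.6 in OPNKO (SD, n = 2 each), a ratio of 11.8. On the scale of log2(value + 1) the difference was 3.51 ± 0.26 (SE), the fifth largest rise of the 16430 genes tested. In reads per 1000000 reads in genes (RPM), exact 95% Poisson intervals ran from 0.259 to 0.690 and 0.361 to 0.825 in WT and from 5.50 to 7.08 and 4.58 to 6.12 in OPNKO. All such intervals cover counting error only. In bulk RNA, a change in the number of cells of a type and a change in RNA per cell cannot be told apart. This holds for this gene and for those that follow.

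Tppp3 encodes the shorter paralogue, which also bundles microtubules and marks tendon sheath progenitors. It lies at chr8:105467493-105471526 on the minus strand (ENSMUSG00000014846; 1848 exonic bases) and was by far the most abundant of the 5 genes. Its normalized read counts were 1442 and 1080 in WT and 4042 and 3483 in OPNKO, with 1107 to 3541 reads per library. Groups did not overlap, but both WT libraries already held a clear signal, unlike those of Tppp. Means were 1261 ± 256 and 3762 ± 396 (SD, n = 2 each), a ratio of 2.98, and the log2 difference was 1.59 ± 0.14 (SE). This rise ranked 247 of 16430. At this depth the libraries of one genotype differed from each other beyond counting error: WT replicate 1 was 1.29 times WT replicate 2 in RPM (95% interval 1.19 to 1.40), and OPNKO replicate 1 was 1.13 times OPNKO replicate 2 (1.08 to 1.19). Tppp2, the remaining family member, was not analysed here.

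Klc3 encodes a kinesin light chain known from spermatids, where it binds the outer dense fibres of the sperm tail. It lies at chr7:19394437-19404104 on the minus strand (ENSMUSG00000040714; 2647 exonic bases). Normalized read counts were 3.29 and 2.93 in WT and 26.3 and 39.8 in OPNKO. These are few reads: 3 in each WT library, and 23 and 32 in the OPNKO libraries. The lower OPNKO library was 7.98 times the higher WT library. Means were 3.11 ± 0.257 and 33.0 ± 9.60 (SD, n = 2 each). In RPM over both libraries of a genotype the ratio was 10.4, with an exact 95% counting interval from 4.49 to 29.6, so its size is poorly fixed. The log2 difference of 3.02 ± 0.54 (SE) was understated by the added 1, and the authors' deposited table gives 3.41 with a standard error of 1.04.

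Dnahc11 encodes a heavy chain of the outer dynein arm, and its loss in humans causes primary ciliary dyskinesia. It spans chr12:117877982-118199043 on the minus strand (ENSMUSG00000018581), with 14458 exonic bases in a gene of 321062 bases. Normalized read counts were 20.8 and 18.5 in WT and 202 and 113 in OPNKO, from 19, 19, 177 and 91 reads. Groups did not overlap, the lower OPNKO library being 5.43 times the higher WT library, but the OPNKO libraries were unequal. OPNKO replicate 1 was 1.74 times OPNKO replicate 2 in RPM (95% counting interval 1.34 to 2.27). Means were 19.7 ± 1.63 and 158 ± 62.8 (SD, n = 2 each), a ratio of 8.01, and the log2 difference was 2.88 ± 0.36 (SE).

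Foxj1 lies at chr11:116330704-116335399 on the minus strand (ENSMUSG00000034227; 1 transcript of 2623 exonic bases). Its normalized read counts were 15.4 and 19.5 in WT and 12.6 and 21.2 in OPNKO, from 11 to 20 reads per library. The groups overlapped fully, with the lowest and the highest value both in OPNKO. Means were 17.4 ± 2.94 and 16.9 ± 6.08 (SD, n = 2 each), and the log2 difference was -0.08 ± 0.49 (SE). The ratio of RPM was 0.935, with a 95% counting interval from 0.546 to 1.59.

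Both OPNKO libraries were above both WT libraries for 4 of the 5 genes, a pattern that 27.7% of the 16430 tested genes show and from which nothing is read for genes chosen by it. The authors' deposited table gives log2 fold changes of 3.56 for Tppp, 1.58 for Tppp3, 3.01 for Dnahc11 and -0.05 for Foxj1. The order within OPNKO was not shared. Tppp, Tppp3 and Dnahc11 were higher in OPNKO replicate 1, and Klc3 and Foxj1 in OPNKO replicate 2, although the ratio of OPNKO replicate 1 to 2 had a counting interval that includes 1 for Tppp (0.972 to 1.43), Klc3 (0.360 to 1.13) and Foxj1 (0.245 to 1.31).

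**Figure D1:**
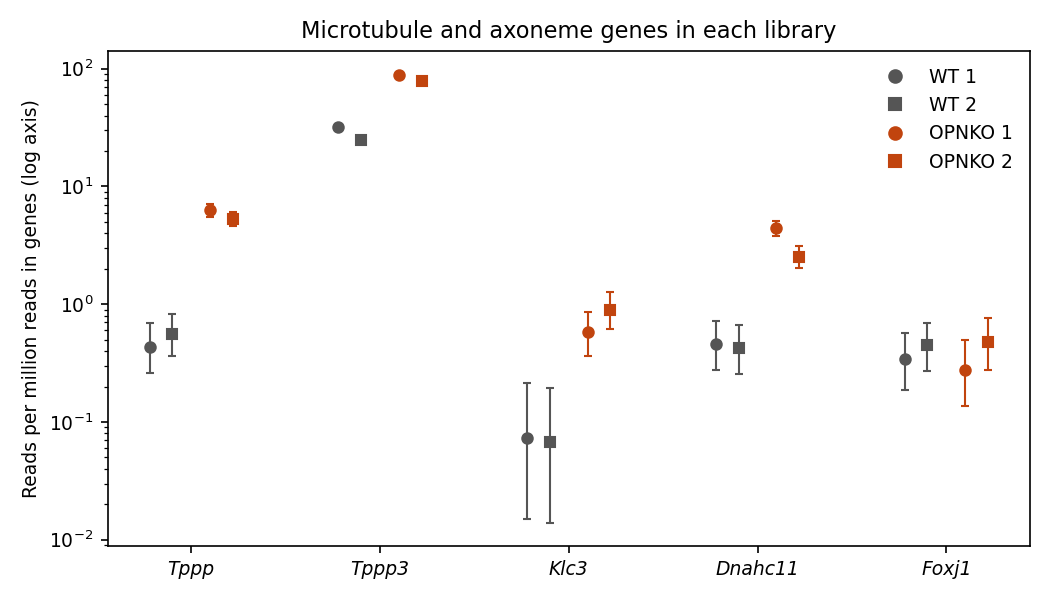
Reads per 1000000 reads in genes (RPM, log axis) of the 5 genes in each of the 4 libraries, with exact 95% Poisson intervals as bars. The OPNKO points of Tppp, Tppp3, Klc3 and Dnahc11 lie above the WT points, whereas those of Foxj1 overlap them.

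Per exonic length the genes were ordered as follows. In RPKM, which is RPM per kilobase of exon, Tppp3 stood highest in every library, at 17.2 and 13.4 in WT and 47.9 and 42.3 in OPNKO. Tppp came next in OPNKO, at levels of 1.23 and 1.04. Its WT levels of 0.0855 and 0.109 were below those of Foxj1, at 0.129 and 0.170, which rest on 14 and 20 reads. Dnahc11 and Klc3 overlapped in OPNKO and lay within counting error of each other in WT. Dnahc11 had 0.0319 and 0.0294 RPKM in WT and 0.306 and 0.176 in OPNKO. Klc3 had 0.0275 and 0.0253 in WT and 0.217 and 0.338 in OPNKO. At 0.181, the higher of the Foxj1 levels in OPNKO was above the lower Dnahc11 level there.

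Near-identical copies within each family were looked for in the annotation. No stretch of 50 bases in the annotated transcripts of Tppp, Tppp3, Klc3 or Dnahc11 occurred in a transcript of its family, 0 of 5102, 1795, 2858 and 14470 stretches in that order. Opposite-strand neighbours with a row in the table overlap 2 of the genes, and Gm6263, which overlaps Tppp by 1342 bases, was not analysed here. The sources used here do not give whether reads were counted by strand. Cdca7l overlaps the end of Dnahc11 by 725 bases, with normalized read counts of 1004 and 1017 in WT and 869 and 1046 in OPNKO. Ercc2, a helicase of DNA repair, overlaps the end of Klc3 by 1258 bases, at 830 and 798 in WT and 817 and 799 in OPNKO. Neither neighbour was called different by limma (log2 difference -0.08, adjusted p = 0.701, for Cdca7l and -0.01, adjusted p = 0.962, for Ercc2). Whether reads of the overlaps entered the values of Dnahc11 and Klc3 was not tested.

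Across the 5 loci 25 genes with a span within 100 kb were tested. Limma called 0 of them, beside 2.33% higher and 1.98% lower of all tested genes. For so few genes 0 calls is near that share, and nothing is read from it. At an unadjusted p under 0.05 there were 2, beside 11.6% higher and 9.54% lower of all tested genes. EdgeR and DESeq2 on recovered reads called 0. The span of Cep72 begins 747 bases beyond the end of Tppp, and its normalized read counts stood at 134 and 106 in WT against 120 and 144 in OPNKO. On the other side the nearest measured gene was Brd9, with a log2 difference of 0.13. Zdhhc1, 897 bases from the start of Tppp3, had normalized read counts of 480 and 517 in WT and 548 and 533 in OPNKO. Slc9a5, the nearest gene with a row in the table on its other side, had a log2 difference of 0.05. Ckm, which encodes muscle creatine kinase and lies 672 bases from Klc3, had 5.48 and 0 in WT and 21.7 and 1.24 in OPNKO, so that 1 library carried most of its reads. Sp4 lies beside Dnahc11 (log2 difference 0.35, limma adjusted p = 0.078), and Rnf157 and Exoc7 flank Foxj1, with log2 differences of 0.42 (limma adjusted p = 0.082) and 0.15 (adjusted p = 0.320).

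**Figure D2:**
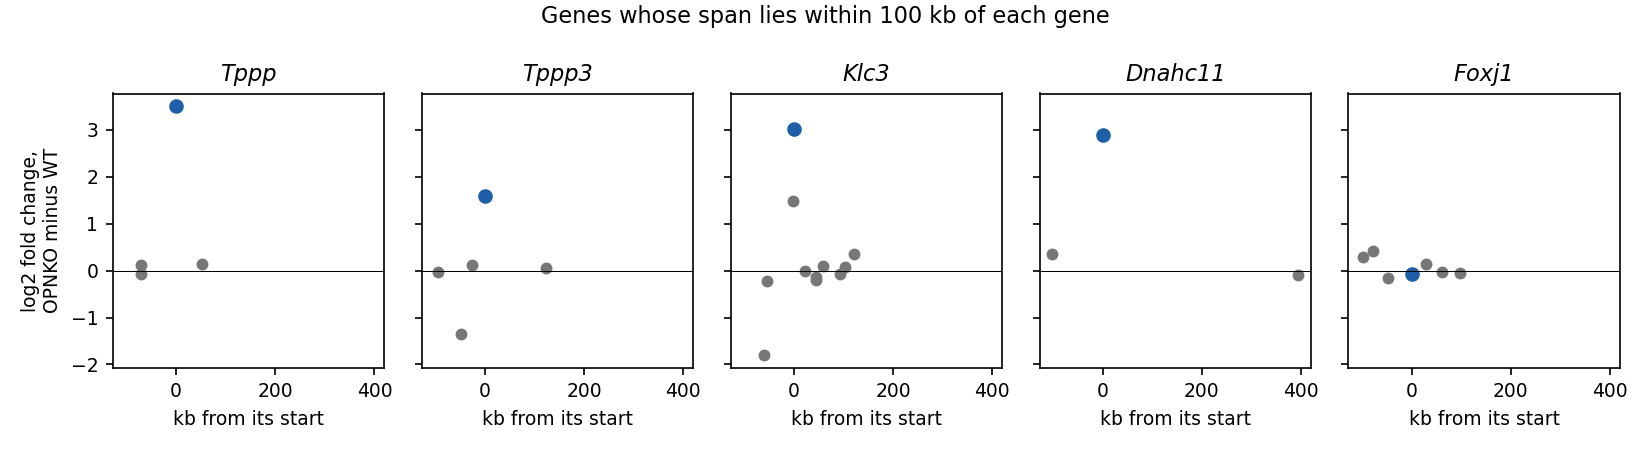
Log2 difference (OPNKO minus WT, log2(value + 1) scale) of each measured gene within 100 kb of the 5 genes, against the distance of its start from the start of the gene in the panel title, in kb, read along the strand of that gene. Blue points are the genes themselves and grey points are their neighbours. Limma called 0 of 25 neighbours, beside 2.33% higher and 1.98% lower of all tested genes.

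Few other genes of the microtubule and axoneme machinery were called. The 14 pathway lists, which were drawn up with earlier results of these data known, name 302 genes besides the 5, of which 258 were in the table and 250 were tested. Limma called 7 of the 250 higher in OPNKO (2.80%, against 2.33% of all genes tested) and 0 lower (against 1.98%). At an unadjusted p under 0.05, 31 were higher (12.4%, against 11.6% of all genes) and 12 lower (4.80%, against 9.54%). EdgeR called 8 higher and 0 lower, and DESeq2 10 higher and 2 lower. The median log2 difference of the 250 genes was 0.04, and that of all tested genes was -0.0006. Both OPNKO libraries were above both WT libraries for 83 of the 250, which is 33.2% beside 27.7% of all tested genes. The share called higher was near its background, and lower calls were fewer than over all genes; neither difference was tested.

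Wdr78 showed the largest rise among the 7. It encodes an intermediate chain of axonemal dynein and is now named Dnai4. Its normalized read counts were 61.4 and 78.1 in WT and 244 and 258 in OPNKO, without overlap. The log2 difference was 1.84 ± 0.21 (SE; limma adjusted p = 0.0066). Map6, whose product keeps microtubules from disassembling in the cold, stood at 315 and 298 in WT and 531 and 524 in OPNKO (log2 difference 0.78; limma adjusted p = 0.0151). Ttll3, a ligase that adds glycine to tubulin, stood at 469 and 518 in WT and 729 and 708 in OPNKO (log2 difference 0.54; limma adjusted p = 0.0344). Its adjusted p in the authors' own Wald test was 0.167, and it was the only one of the 7 above 0.05 there. The remaining 4 rose by log2 differences of 0.31 to 0.32, with limma adjusted p-values from 0.0351 to 0.0418. They were Camsap2, which caps microtubule minus ends, Cep170, a centrosomal protein, Kif1b, a kinesin that carries mitochondria and vesicle precursors, and Dync1h1, the heavy chain of cytoplasmic dynein. With each library left out in turn their log2 differences kept their sign, but most calls were lost, in a design of 2 libraries against 1. Without WT replicate 1 or without WT replicate 2, limma called 0 of these pathway genes. Without OPNKO replicate 1 it called 3, of which 1 was among the 7 and 2 were lower, and without OPNKO replicate 2 it called 3 higher, of which 2 were among the 7. The log2 difference of Wdr78 ran from 1.67 to 2.01, and its adjusted p was 0.155 without WT replicate 1 and 0.105 without WT replicate 2. For Map6 the log2 difference ran from 0.74 to 0.82, and the adjusted p was 0.171, 0.209 and 0.0521 without WT replicate 1, WT replicate 2 and OPNKO replicate 1. The other 5 genes had log2 differences between 0.27 and 0.61 and adjusted p-values between 0.0679 and 0.330 with any 1 library left out.

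**Figure D3:**
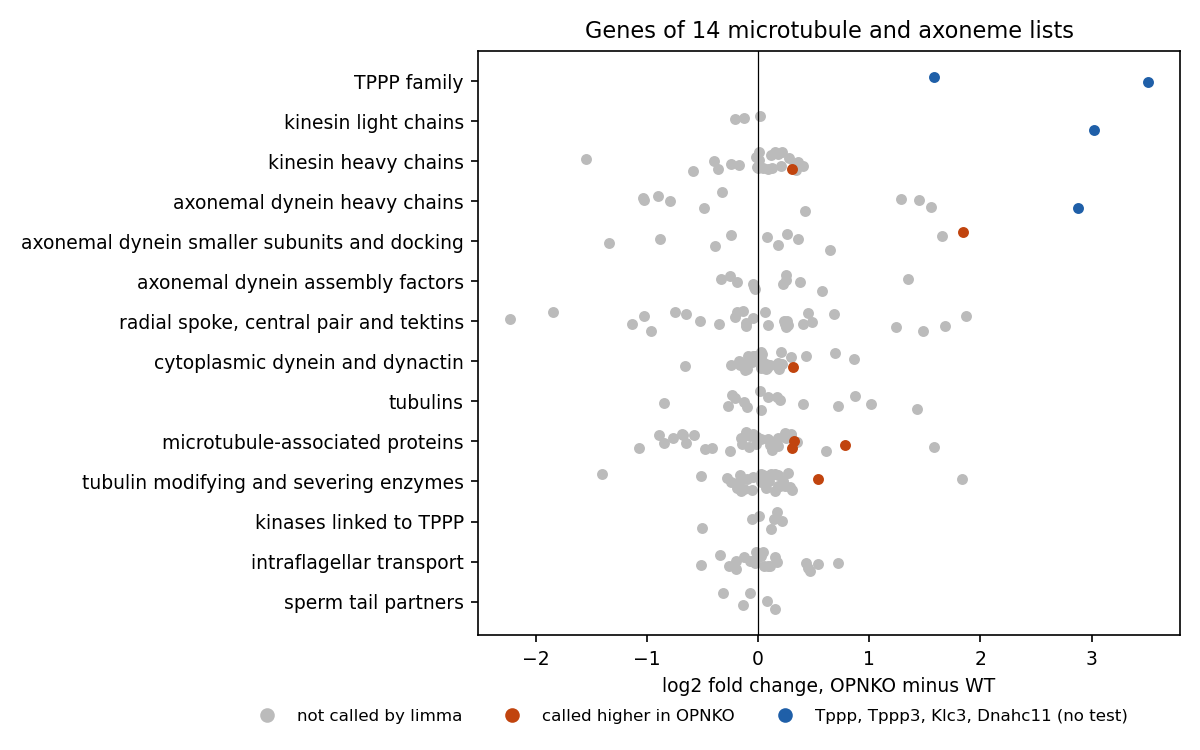
Log2 difference (OPNKO minus WT, log2(value + 1) scale) of every tested gene of the 14 lists, 1 row per list. Orange points are the 7 genes called by limma, all to the right of 0, and blue points are Tppp, Tppp3, Klc3 and Dnahc11, which have no test.

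Among kinesin light chains Klc3 was the least abundant. Klc1 and Klc4 stood at 16.7 to 17.6 and 20.7 to 25.7 RPKM, and Klc2 at 3.31 to 3.90, against at most 0.338 for Klc3. Limma called 0 of these 3, with 1 at an unadjusted p under 0.05 and 0 by edgeR and by DESeq2. The smallest p was that of Klc4, with a log2 difference of -0.21 ± 0.08 (SE; limma adjusted p = 0.197), followed by Klc2 at -0.13 and Klc1 at 0.02. Among the 25 tested kinesin heavy chains, Kif1b was the only one called by limma, whereas edgeR and DESeq2 each called 2.

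Axonemal dynein heavy chains other than Dnahc11 were mostly near the limit of detection. Among the 12 with a row in the table, 10 stayed under a normalized read count of 20 in every library, and Dnahc7a had no read in any. The exceptions were Dnahc2 and Dnahc8, heavy chains of the inner and of the outer arm. Dnahc8, best known from sperm, had 46.1 and 35.1 in WT and 92.5 and 156 in OPNKO. Its groups did not overlap, and the log2 difference of 1.55 ± 0.33 (SE) missed the threshold (limma adjusted p = 0.0507). Dnahc2 lay the other way, at 162 and 173 in WT and 84.5 and 94.6 in OPNKO (log2 difference -0.90 ± 0.20, SE; limma adjusted p = 0.0564). Dnahc10, of the inner arm, was at 3.29 and 0.976 in WT and 17.1 and 2.49 in OPNKO (limma adjusted p = 0.446). Of the 10 heavy chains tested, limma and edgeR called 0, DESeq2 called 1, and 2 had an unadjusted p under 0.05. Some heavy and intermediate chains of the outer arm of airway cilia were barely detected. The heavy chains Dnahc5 and Dnahc9 had normalized read counts of at most 4.57 and 2.19, and the intermediate chains Dnaic1 and Dnaic2 of at most 7.81 and 8.78. Among the 11 smaller subunits and docking factors tested, Wdr78 was the only one called, by each of limma, edgeR and DESeq2. Of the 11, 7 stayed under a normalized read count of 20 in every library. Dnalc4, at 784 to 853, Dnalc1, at 28.5 to 64.4, and Ccdc114, at 52.7 to 83.9, did not, nor did Wdr78.

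**Figure D4:**
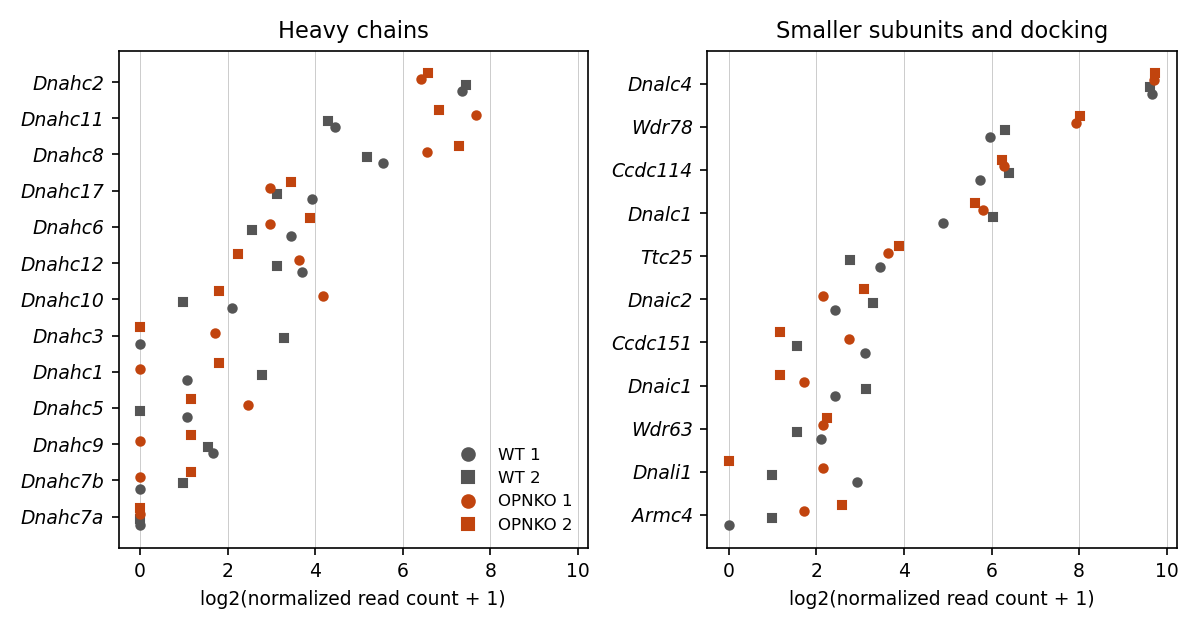
Normalized read count, as log2(value + 1), of axonemal dynein heavy chains (left) and of smaller subunits and docking factors (right) in each of the 4 libraries, 1 row per gene. Dnahc11, Dnahc8 and Wdr78 have OPNKO points to the right of their WT points, Dnahc2 has them to the left, and most other heavy chains lie near 0.

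Axoneme genes further from the dynein arms gave no call. For the 12 assembly factors tested, which fold dynein arms in the cytoplasm, limma, edgeR and DESeq2 called 0, with 2 at an unadjusted p under 0.05. Spag1 had a log2 difference of 0.57 and Dnaaf2 of -0.34 (limma adjusted p = 0.209 and 0.213). Dyx1c1 had 1.35 (limma adjusted p = 0.266). For the 30 radial spoke, central pair and tektin genes tested the 3 tools also called 0, with 2 at an unadjusted p under 0.05, and 25 of the 34 in the table stayed under a normalized read count of 20 in every library. Those with the smallest p were Spef1, a central pair protein that also binds microtubules elsewhere, with a log2 difference of 0.27 (limma adjusted p = 0.184), the radial spoke gene Rsph4a, with at most 6 reads in a library, and 9230110C19Rik, with at most 4. For the 23 genes of intraflagellar transport, which carries cargo along cilia, the 3 tools called 0, with 4 at an unadjusted p under 0.05. Ift80, Ttc30b and Ift43 had log2 differences of 0.54, 0.72 and 0.47 (limma adjusted p = 0.077, 0.115 and 0.123). For the 5 tested partners of the sperm tail, where Klc3 is known to act, the 3 tools called 0 and none had an unadjusted p under 0.05. Vdac3, Spata6 and Odf2 had log2 differences of -0.13, 0.15 and 0.08.

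Tubulins and the enzymes linked to TPPP gave no limma call either. Tubb2b, a beta-tubulin of neurons, had the largest difference of the 16 tubulins tested, at 48.3 and 78.1 in WT and 139 and 202 in OPNKO. Its log2 difference was 1.43 ± 0.31 (SE; limma adjusted p = 0.0517). Tuba1c and Tubb6 had log2 differences of -0.27 and 0.20 (limma adjusted p = 0.0727 and 0.157). Of the tubulins, limma and edgeR called 0, DESeq2 1 higher and 1 lower, and 5 had an unadjusted p under 0.05. Among 7 kinases reported to bind or phosphorylate TPPP, limma and edgeR called 0, DESeq2 1 lower, and 2 had an unadjusted p under 0.05. They were Limk1, the kinase of cofilin (log2 difference -0.50; limma adjusted p = 0.0639), and Rock1 (0.22; limma adjusted p = 0.102). In the lists that held the other calls, 1 of 35 genes of cytoplasmic dynein and dynactin, 3 of 40 microtubule-associated proteins and 1 of 33 tubulin modifying and severing enzymes were higher by limma. Limma, edgeR and DESeq2 called 0 of them lower, and 1 of the enzymes was lower at an unadjusted p under 0.05.

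Airway ciliated cells were followed with a list of 30 markers. Without Foxj1, 25 of them were in the table and 21 were tested. Of the 25, 18 stayed under a normalized read count of 20 in every library, and Pifo had no read. Limma called 2 of the 21 higher and 0 lower, beside 2.33% higher and 1.98% lower of all tested genes. EdgeR and DESeq2 called the same numbers, and none was lower at an unadjusted p under 0.05. The 2 called are transcription factors that other cells also use. Myb, a regulator of blood cell progenitors as well as of ciliated cells, stood at 195 and 168 in WT and 661 and 993 in OPNKO (log2 difference 2.16 ± 0.20, SE; limma adjusted p = 0.0034). Rfx2, which binds the X-box of ciliary genes, stood at 304 and 239 in WT and 560 and 538 in OPNKO (log2 difference 1.02 ± 0.15, SE; limma adjusted p = 0.0143). The summed normalized read count of the 25 markers was 1114 and 997 in WT and 1865 and 2131 in OPNKO. Without Myb and Rfx2 the other 23 had sums of 615 and 590 in the WT libraries and 644 and 600 in the OPNKO libraries, so the higher OPNKO sums came from those 2 genes. The log2 differences ran from 1.86 to 2.45 for Myb and from 0.85 to 1.20 for Rfx2 with each library left out in turn, but neither call held with 1 WT library left out. The adjusted p of Myb was 0.155 without WT replicate 1 and 0.127 without WT replicate 2, and that of Rfx2 was 0.155, 0.177 and 0.0554 without WT replicate 1, WT replicate 2 and OPNKO replicate 1.

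Markers of other cells moved with genotype too. Limma called 12 of 16 markers of the early T lineage higher in OPNKO and 0 lower, beside 2.33% higher and 1.98% lower of all tested genes. Of the 16, 0 were lower at an unadjusted p under 0.05 or by edgeR or DESeq2. Their summed normalized read count was 4170 and 4931 in WT and 13290 and 21066 with OPNKO, and all 16 were present. Of the OPNKO libraries, replicate 2 held the higher value of each of the 16, and the share of all genes with this order was not counted. Markers of B and plasma cells lay the other way, with a sum of 15832 in WT replicate 1, 20846 in WT replicate 2 and 6237 and 5405 in the OPNKO libraries. Markers of fibroblasts and muscle set WT replicate 2 apart, at a sum of 5796 against 635 to 1145 in the other libraries. Secretory airway cell markers, which would come with airway epithelium, had a WT sum of 2643 in replicate 1 and 3989 in replicate 2, beside 5067 and 3891 for OPNKO. Hp made up most of these sums, and the other 10 had sums of 601 and 1418 in the WT libraries and 543 and 533 in the OPNKO libraries. The median log2 difference of the 11 was -0.82. The airway secretoglobin Scgb1a1 among them stood at 400.4 and 1024 in WT and 338 and 360 in OPNKO. Of 18 alveolar macrophage markers limma called 3 higher and 2 lower, and of 10 B and plasma cell markers 3 lower. It called 1 of 12 markers of alveolar type 2 cells, 1 of 11 of secretory cells, 1 of 10 of alveolar type 1 cells and 1 of 8 of endothelium. Limma called Cidec, Krt79 and Pparg of the alveolar macrophage list higher (log2 differences 1.85, 1.38 and 0.41) and Car4 and Ear2 lower (-0.68 and -0.39). The 12 called T lineage genes, Rag1, Rag2, Dntt, Cd8a, Cd8b1, Cd4, Lck, Lat, Arpp21, Themis, Bcl11b and Tcf7, had log2 differences of 0.97 to 2.79. Igj, Igkc and Mzb1 of the B and plasma cell list were lower (-2.92, -2.54 and -1.66), as was Napsa of alveolar type 2 cells (-0.75). Hp of secretory cells, Cav1 of alveolar type 1 cells and Vwf of endothelium were higher (0.77, 0.71 and 0.38). Limma and edgeR called 0 of 12 fibroblast and muscle markers (5 at an unadjusted p under 0.05, 1 by DESeq2), 0 of 6 of Schwann cells and glia (2, and 1 by DESeq2), 0 of 5 of neuroendocrine cells (2, and 0 by DESeq2) and 0 of 5 of mast cells and basophils (0, and 0 by DESeq2). Over the whole table limma called 4 genes without WT replicate 1 and 11 without WT replicate 2, in a design of 2 libraries against 1. What part these cells have in the values of Tppp, Tppp3, Klc3 and Dnahc11 was not tested.

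**Figure D5:**
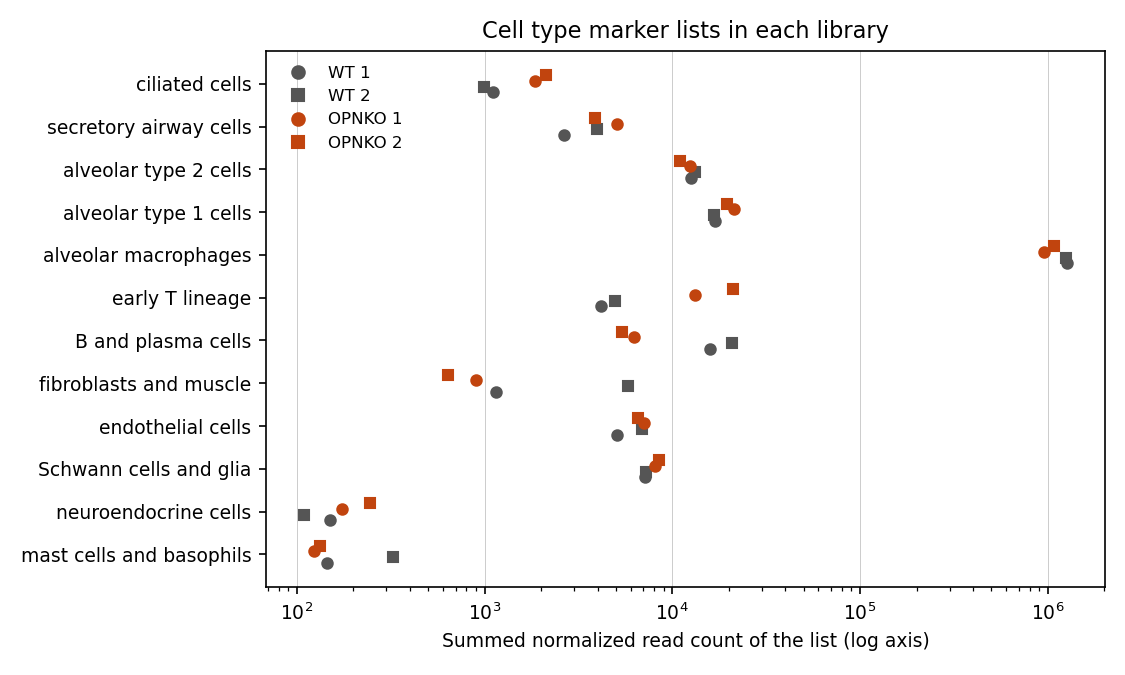
Summed normalized read count (log axis) of 12 marker lists in each of the 4 libraries, without the 5 genes. Ciliated cell markers sum to between 997 and 2131, and the early T lineage markers of both OPNKO libraries lie above those of both WT libraries.

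Profiles over the 4 libraries were compared with those of 12886 or 12887 other genes, those with a mean normalized read count of at least 20, by the root mean square distance of centred log2(value + 1). This likeness rests on 4 points that mostly separate the genotypes and is a description. Tppp, Klc3 and Dnahc11 were picked for high OPNKO values, so genes high in OPNKO had to come nearest. Some of these passed the filter only through OPNKO. Slc10a6 had 5.48 and 4.88 in WT and 69.6 and 101 in OPNKO. Trpm1 had 8.78 and 5.86 against 38.8 and 39.8, and Tdrd5 16.5 and 16.6 against 111 and 197. A930013B10Rik had 16.5 and 22.4 against 121 and 147, and Dnahc11 itself had a WT mean of 19.7 beside 202 and 113 in OPNKO. Dnahc11 was among the 5 genes nearest to Tppp, at a distance of 0.403, and Tppp among the 5 nearest to Dnahc11. Both were picked for high OPNKO values, so nothing is read from this likeness. The remaining genes nearest to Tppp were Slc10a6, a transporter of steroid sulfates, at 0.349, D630039A03Rik at 0.433, A930013B10Rik at 0.436 and Tdrd5 at 0.451. Those nearest to Dnahc11 were D630039A03Rik at 0.209, Trpm1, H2-Q2 and A930013B10Rik, the last 3 at 0.440 to 0.449. Klc3 had closer neighbours, but its own profile rests on 3 reads in each WT library and on 23 and 32 in the OPNKO libraries. The mean of Klc3 was below the filter set for the other genes. Its distances were not set against counting error, so their order is not read. Tdrd5, a germ cell protein of the piRNA pathway, lay at 0.103, Rag1, the recombinase of antigen receptor genes, at 0.180, Endou at 0.199, Dntt, the polymerase that adds bases at antigen receptor joins, at 0.226 and A930013B10Rik at 0.267. Rag1 had normalized read counts of 462 and 554 in WT and 2861 and 4307 in OPNKO, and Dntt 168 and 180 in WT and 824 and 1390 in OPNKO. Both belong to the early T lineage list, whose genes stood mostly higher in OPNKO, and a link of Klc3 to such cells was not tested.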

How the data were processed

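Bulk RNA-seq of sorted alveolar macrophages was analysed in 2 WT and 2 OPNKO libraries, from 10 stranded mRNA libraries pooled on one lane per the labels' protocols. The submitters' processing notes name STAR 2.4.1d, Trim Galore 0.4.0, edgeR and HTSeq 0.6.1p1, with no role or order. For genome build, annotation and strand setting the entry is the same: not given in the sources used here. Per gene and library the authors deposited a normalized read count, a signal made by dividing reads by a size factor per the file headers. The authors also deposited a log2 fold change, a standard error and a Wald statistic (score columns), and the p-value before and after adjustment, per the file headers. Values of 2 unlabelled columns were left aside. All values were whole multiples of 1 read (100% within 0.001 reads), so reads were recovered.

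The genotypes were compared as OPNKO minus WT on log2(value + 1), without covariates, by limma 3.58.1 with a trend (R 4.3.3). The test covered the 16430 genes whose mean was 1 or more, leaving out 324. Benjamini-Hochberg adjustment ran over all tested genes, and an adjusted p under 0.05 was called, which gave 709 genes, 383 higher and 326 lower. With 2 against 2 libraries an exact permutation test cannot go below 0.333 (two-sided), so none was used. The added 1 understates changes of low genes. The quasi-likelihood test of edgeR 4.0.16 and DESeq2 1.42.0, both on recovered reads, were alternatives, as were other pseudocounts, filters and scalings, the replicate number as a block, each library left out in turn, and for the 5 genes only the libraries whose title and genotype tag name the same genotype. The limma step was tested on simulated data. A row without a symbol (1 in all) took 0.0154% to 0.0175% of reads and was left out of the tests. Genes were placed by Ensembl identifier in GENCODE M21 (GRCm38), and the table's older symbols are used. Reads per kilobase use the summed exonic length. Tables and plots were made with Python 3.11.15, pandas 2.3.3, numpy 2.4.6 and matplotlib 3.10.9.

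The 5 genes, the 14 pathway lists and the 12 marker lists were chosen with earlier results of these data known. Named genes were the 5 genes, Spp1, every called gene of a list or, where no gene of a pathway list was called, up to 3 with the smallest p, the overlapping or nearest neighbours, and the 5 nearest profiles of Tppp, Klc3 and Dnahc11. Outside this rule, and after their values had been seen, some genes were added. They were Chil3, Siglecf, Marco, Scgb1a1 and Rfx3 among the marker lists, and Ccdc114, Dnahc5, Dnahc7a, Dnahc9, Dnaic1, Dnaic2, Dnalc1, Dnalc4 and Pifo.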

Additional observations from a re-analysis of the deposited data

How the results depend on the processing

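The count of called genes, 709, was 1 with no filter on low values, 1127 with DESeq2 and 4 to 545 with each library left out in turn. A group so left with a lone library takes its spread from the other. The count of called pathway genes, 7, was 0 with no filter, 12 with DESeq2 (all 7 among them) and 0 to 3 with a library left out, of which at most 2 were among the 7. The count of called ciliated markers, 2, was 0 with no filter and 0 to 2 with a library left out. With the replicate block the counts were 1566, 17 and 2. The labels do not say what the replicate numbers share, and the deviations of same-numbered libraries were not correlated (-0.031 over 11623 genes whose mean value was 50 or more), so the numbers were not taken as pairs. The cause of these shifts was not tested. Other pseudocounts, a filter at a mean value of 10, 2 other scalings and edgeR kept all 3 counts within 1.5 times. The median log2 difference of all genes moved by at most 0.02 under another scaling. For the 5 genes themselves, a pseudocount of 5 gave log2 differences of 3.30 for Tppp and 2.21 for Klc3, and Klc3 had 3.34 with edgeR and 3.40 with DESeq2. With only WT replicate 1 and OPNKO replicate 2, whose title and tag give 1 genotype each, Tppp3 had 1.27, Dnahc11 2.39 and Foxj1 0.44. With each library left out in turn, log2 differences ran from 3.36 to 3.65 for Tppp, 1.38 to 1.80 for Tppp3, 2.73 to 3.31 for Klc3, 2.47 to 3.30 for Dnahc11 and -0.43 to 0.27 for Foxj1, whose sign is thus not fixed. Of 15 neighbours tested within 50 kb limma called 0, and within 250 kb 1 of 82, which was 1 of 28 near Tppp3. Over all tested genes it called 2.33% higher and 1.98% lower. Depth limits Klc3, Foxj1 and most axonemal dyneins, which have few reads in a library.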
